A study of Sus scrofa with 37 samples.

Results

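Genes of 7 proteins that circulate in blood plasma were followed in RNA sequencing libraries of pig pancreas and pig islets: ALB, TF, FGA, FGB, FGG, APOA1 and APOB. They had been picked for their levels in the pancreas libraries, and a row of counts was matched for 6 of the 7 among 25880 gene identifiers. FGA had no matching identifier and was dropped. Because pancreas levels chose these genes, their pancreas values and every difference that includes pancreas are given as descriptions, and a test is read only within the islet libraries. ALB was carried by ENSSSCG00000008948, TF by ENSSSCG00000011640, FGB by ENSSSCG00000008997, FGG by ENSSSCG00000024314, APOA1 by ENSSSCG00000030921 and APOB by ENSSSCG00000008595. The submitters name the genome build susScr3, and no positions are given because the gene table at hand is of assembly Sscrofa11.1. In that table FGA lies between FGG and FGB, 2 adjacent loci carry the symbol TF, and APOA1 adjoins APOC3, so the TF counts are uncertain and reads of neighbouring genes may not be fully separated.

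Plasma proteins are made and secreted mainly by hepatocytes, the parenchymal cells of the liver, under the control of liver-enriched transcription factors. Albumin (ALB) holds osmotic pressure and carries fatty acids, transferrin (TF) carries iron, and the fibrinogen chains FGA, FGB and FGG form the clot precursor from adjacent genes. APOA1 is the main protein of high-density lipoprotein and APOB that of low-density and very-low-density lipoprotein, and both are also made by enterocytes of the gut. The exocrine pancreas shares its embryonic origin in the foregut with the liver, and neither acinar nor islet cells are known as a main source of albumin.

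The pancreas samples were 50 mg pieces of parenchyma cut from the duodenal lobe at organ retrieval, and the islet samples were purified islets kept free-floating in culture for 7 days. Each library came from 1 animal, named by the code in its title, and carried a label of High or Low islet density. The labels give no strain, age, genotype or treatment that differs between groups. Counts were at hand for 35 of 37 samples: 8 pancreas High, 9 pancreas Low, 8 islets High, 9 islets Low and 1 islet library of animal 12AS51 with no density label, which entered only the comparison of tissues. Both tissues were at hand for 16 animals, and in 4 of them the density label differed between the tissues. For 2 islet samples (11KS28 and 12AS51) the title and the source name disagree on the tissue, the latter reading pancreas, and the title decided. Their summed acinar markers, 16.5 and 5.07 counts per 1000000 gene counts (CPM), lay with the islet libraries and not with the pancreas libraries (11630 or more).

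Depth was 3237653 to 6702589 gene counts in islets and 1855075 to 3922006 in High pancreas. Of the Low pancreas libraries 7 held only 265000 to 536014 counts, and the other 2 held 1884982 (animal 15LS30) and 2234639 (12FS161). Levels are given in CPM throughout. A gene with 0 counts could lie at up to 3 counts, which is 5.60 to 11.3 CPM in those 7 libraries, 0.765 to 1.62 CPM in the other 10 pancreas libraries and 0.448 to 0.927 CPM in islets. Intervals for single libraries are 95% Wilson intervals, and like the floors they cover counting error only. The summed level of 10 acinar markers was 11630 to 26187 CPM in the 7 shallow Low libraries, 90844 CPM in 15LS30, 113253 CPM in 12FS161 and 157332 to 240092 CPM in High pancreas, so the density label, depth and acinar content of the pancreas libraries cannot be told apart. In whole pieces of tissue, more cells of a type and more RNA per cell cannot be told apart either.

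In the pancreas, these plasma protein genes were carried mainly by 2 libraries, those of animal 11KS28, labelled High, and animal 15LS30, labelled Low. The 2 libraries held 75.1% of all counts of the 6 genes over the 17 pancreas libraries, against 16.2% of the counts of all genes. Summed over the 6 genes, the level was 1138 CPM in 11KS28 and 1305 CPM in 15LS30. In the 15 other pancreas libraries it ran from 29.6 to 243 CPM with a median of 78.9 CPM, so neither library overlapped with them. The highest of those 15 was the High library of animal 16CS60. All 6 genes lay above their pancreas median in 2 of 17 libraries, again 11KS28 and 15LS30. At 5 times the median or more, each of these libraries carried 4 of the 6 genes (ALB, TF, FGB and FGG), the Low library 14ES73 carried 2 and 16CS60 carried 1.

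**Figure D1:**
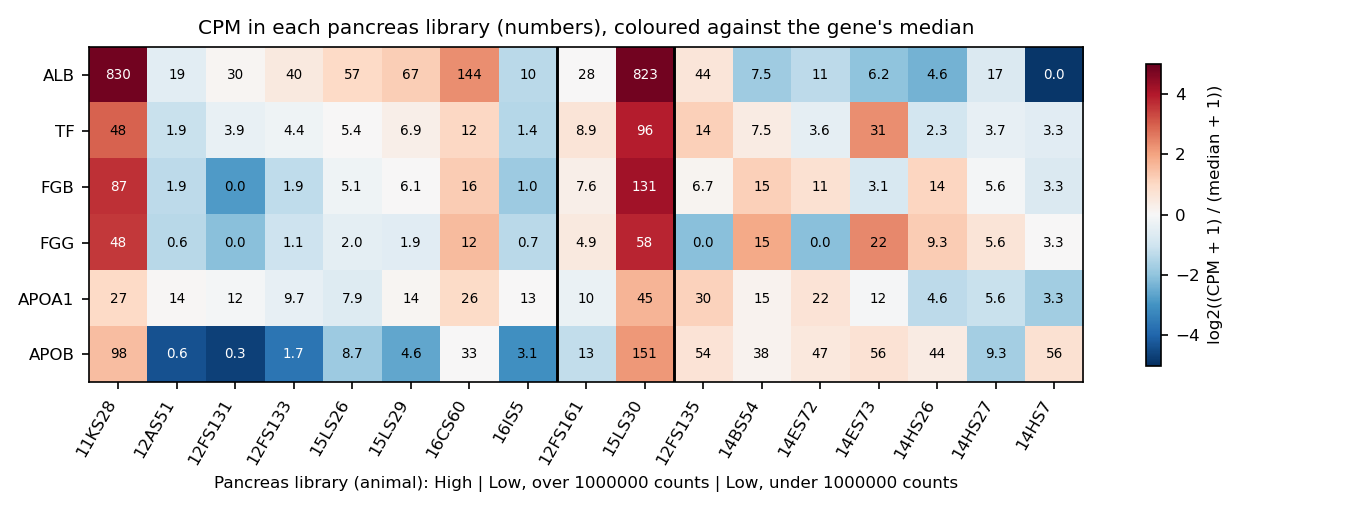
CPM of the 6 plasma protein genes in each of 17 pancreas libraries (numbers), with columns ordered by density label and depth and colours giving log2 of (CPM + 1) over (the gene's median + 1), capped at 5 in either direction. The columns of 11KS28 and 15LS30 are above the median in every row, and the row of APOB is also above its median in 6 of the 7 libraries under 1000000 counts.

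Albumin showed the pattern most plainly. In High pancreas ALB ran from 10.3 CPM to 829.7 CPM with a median of 48.7 CPM, and the highest value was that of 11KS28 (2589 counts, interval 798.4 to 862.3 CPM). In Low pancreas it ran from 0 CPM (animal 14HS7) to 823 CPM with a median of 10.9 CPM, and the highest value was that of 15LS30 (1552 counts, interval 783.4 to 865.3 CPM). The next library, 16CS60, stood at 143.9 CPM (267 counts), and no other pancreas library exceeded 67.1 CPM. The High and Low ranges overlapped. Without 11KS28 and 15LS30 the means were 52.6 ± 44.9 CPM in High (SD, n = 7) and 14.8 ± 14.6 CPM in Low (SD, n = 8), and 5 of those 8 Low libraries held 3 counts of ALB or fewer.

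Transferrin also peaked in these libraries, though less far above the rest. TF stood at 47.8 CPM in 11KS28 (149 counts, interval 40.7 to 56.1 CPM) and at 96.0 CPM in 15LS30 (181 counts, interval 83.0 to 111.1 CPM). In the 7 other High libraries it ran from 1.38 to 11.9 CPM with a median of 4.45 CPM. In the 8 other Low libraries it ran from 2.32 to 30.9 CPM with a median of 5.64 CPM, the highest being 14ES73 with 10 counts. All 15 were below 11KS28 in CPM, but the interval of 14ES73, 16.8 to 56.8 CPM, covers the value of 11KS28.

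The fibrinogen chains FGB and FGG followed the same pair of libraries. FGB stood at 87.2 CPM in 11KS28 (272 counts, interval 77.4 to 98.2 CPM) and at 131.04 CPM in 15LS30 (247 counts, interval 115.7 to 148.4 CPM). In the 15 other pancreas libraries it ran from 0 to 16.2 CPM with a median of 5.60 CPM. FGG stood at 48.4 CPM in 11KS28 (151 counts, interval 41.3 to 56.8 CPM) and at 58.4 CPM in 15LS30 (110 counts, interval 48.4 to 70.3 CPM), while in the others it ran from 0 to 21.6 CPM with a median of 2.04 CPM. Both chains were therefore high in the same pieces, as was ENSSSCG00000008998, a gene without a symbol in the table used, at 66.7 CPM (208 counts) and 107.7 CPM (203 counts) against at most 14.6 CPM elsewhere. That gene was picked after its values were seen.

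The apolipoproteins behaved less uniformly. APOA1 stood at 26.9 CPM in 11KS28 (84 counts, interval 21.8 to 33.3 CPM) and at 44.6 CPM in 15LS30 (84 counts, interval 36.0 to 55.2 CPM). Here the second highest pancreas library was 12FS135, at 30.4 CPM from 9 counts, whose interval of 16.0 to 57.7 CPM covers both. In all 15 others APOA1 ran from 3.28 to 30.4 CPM with a median of 12.3 CPM, and the 2 libraries held only 34.3% of its counts, against 70.0 to 81.3% for the 5 other genes.

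APOB had a second source of spread. It stood at 98.1 CPM in 11KS28 (306 counts, interval 87.7 to 109.7 CPM) and at 151.2 CPM in 15LS30 (285 counts, interval 134.6 to 169.8 CPM). In the 7 shallow Low libraries it ran from 9.33 to 55.7 CPM with a median of 47.3 CPM, from 5 to 19 counts each. In the 8 other deep libraries it ran from 0.325 to 32.9 CPM with a median of 3.84 CPM. The shallow libraries thus lay above most deep libraries for APOB, while for ALB they lay at 0 to 43.9 CPM with a median of 7.55 CPM against 10.3 to 143.9 CPM and a median of 35.3 CPM. The part that depth and acinar content play in this was not tested.

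**Figure D2:**
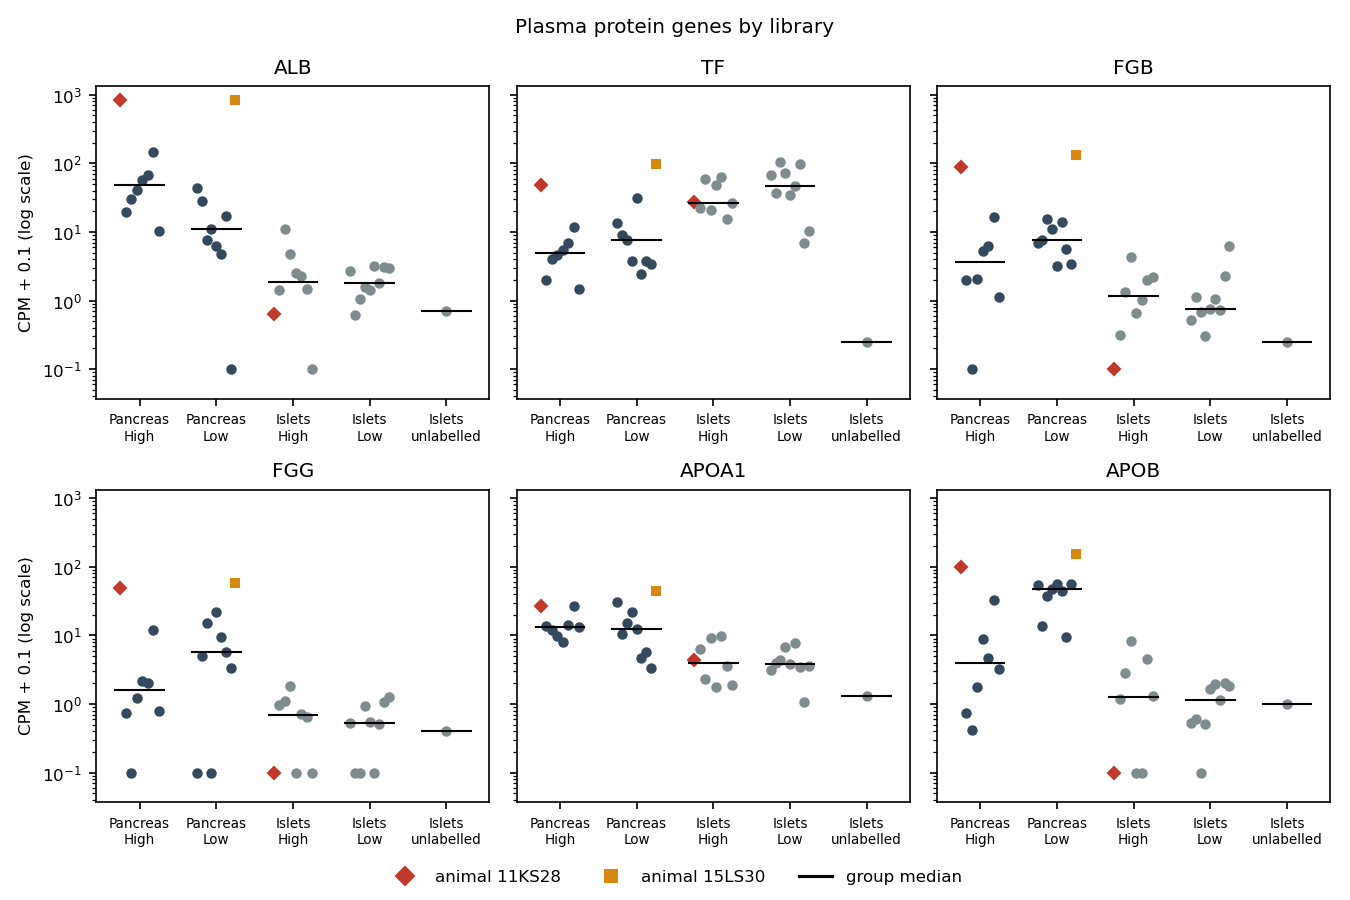
CPM plus 0.1, on a log axis, of each plasma protein gene in 35 libraries by tissue and density label, with black lines at group medians, red diamonds for animal 11KS28 (pancreas and islets) and orange squares for the pancreas of 15LS30. The 2 pancreas points stand above the rest for ALB, TF, FGB, FGG and APOB among pancreas libraries, and TF is the one gene whose islet points lie mostly above its pancreas points.

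Among the 10 pancreas libraries with more than 1000000 counts, 11KS28 and 15LS30 were the 2 highest for 6 of 6 genes, and 16CS60 came next for 6 of 6. Among all 17, they were the 2 highest for 5 of 6, APOA1 being the exception. The same was counted over all 19832 genes with 10 counts or more in pancreas. Both libraries lay above the 15 others for 70 genes (0.353%) and above the 8 other deep libraries for 230 genes (1.16%). Since the 6 genes were chosen on these levels, the shares give the scale and nothing is read from them about the 6 genes.

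The 2 libraries resembled each other in amount for albumin and differed for most of the other genes. The level in 15LS30 over that in 11KS28 was 0.992 for ALB (exact 95% interval 0.931 to 1.06) and 1.21 for FGG (0.935 to 1.55). It was 1.50 for FGB (1.26 to 1.79), 1.54 for APOB (1.31 to 1.82), 1.66 for APOA1 (1.21 to 2.27) and 2.01 for TF (1.61 to 2.52). For 4 of 6 genes the interval lies above 1, for counting error only, and each library is a single piece of tissue. Over the same libraries the ratio was 6.29 for INS (insulin), 8.57 for CHGA (chromogranin A) and 0.582 for CPA1 (carboxypeptidase A1, an acinar enzyme). The 6 genes thus differed less between the 2 pieces than INS and CHGA did. This did not hold for every plasma protein gene. Among others, described below, the ratio was 8.11 for TTR and 2.31 for APOH, but 1.505 for GC, 1.12 for HRG and 1.09 for VTN. What sets these ratios was not tested.

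Endocrine content was high in the same libraries. The summed level of 9 endocrine markers was 2036 CPM in 11KS28, 13661 CPM in 15LS30 and 3026 CPM in 16CS60, the 3 highest of 17, while the other 14 libraries ran from 246.3 to 1450 CPM. In the islet libraries the same sum ran from 8125 to 87756 CPM, and ALB there was 0 to 10.9 CPM. ALB was below the levels of 11KS28 and 15LS30 in 18 of 18 islet libraries. Islets were also purified and cultured for 7 days, so these values cannot be set against whole pieces for endocrine content alone. Whether endocrine content plays a part in the pancreas values was not tested.

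Other plasma proteins were examined next, from a list of 35 further secreted liver products, of which 33 had a row. Both libraries lay above the 15 others for 5 of these 33 and above the 8 other deep libraries for 15 of 33, against 0.353% and 1.16% of all genes. The 2 libraries were singled out by plasma protein genes and the list was made with earlier results known, so these counts are a description. The 5, chosen after their values were seen, were VTN (vitronectin, an adhesion protein), APOH (beta-2-glycoprotein), HRG (histidine-rich glycoprotein), GC (the vitamin D binding protein) and A2M (a protease inhibitor). VTN stood at 24.4 CPM in 11KS28 and 26.5 CPM in 15LS30, against at most 9.28 CPM elsewhere. APOH stood at 8.97 and 20.7 CPM against at most 7.55 CPM, and GC at 10.6 and 15.9 CPM against at most 6.55 CPM. Some other liver products, also named after their values were seen, were at or near 0 in these pieces. SERPINA1 (alpha-1-antitrypsin) had 0 counts in 11KS28 and 3 in 15LS30, APOA2 had 0 and 2, and FETUB (fetuin B) had 0 and 0, which allows up to 0.962 and 1.59 CPM.

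The most abundant genes of that list in pancreas were KNG1 (kininogen), TTR (transthyretin, also made by islet cells) and C3 (a complement component). KNG1 was at 120.2 CPM in 11KS28 and 120.4 CPM in 15LS30, within the 3.64 to 281.5 CPM of the others. C3 was at 140.7 and 169.8 CPM, also within the range of the others, up to 196.8 CPM. TTR was at 62.5 and 506.6 CPM, with at most 82.4 CPM in the others and 2406 ± 865 CPM in islets (SD, n = 18). These abundant genes therefore did not single out the same pair of libraries.

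Most hepatocyte enzymes and receptors were not above the other libraries in both pieces. Of 20 hepatocyte enzymes and receptors with 10 counts or more, 0 were above all 15 others in both libraries, against 0.353% of all genes. Above the 8 deep ones were 3 of 20, against 1.16% of all genes. The 3 were CPS1 and OTC of the urea cycle and TDO2 of tryptophan breakdown, named after their values were seen. These counts too are a description. CPS1 had 51 and 25 counts (16.3 and 13.3 CPM), against at most 8.39 CPM in the 8 deep libraries and 18.6 CPM in the 15. The cytochrome CYP2E1 had 0 counts in 11KS28 and 42 in 15LS30, where its 22.3 CPM lay above the 15 others (at most 16.4 CPM). The asialoglycoprotein receptor chain ASGR1 had 1 and 6 counts. Both genes were also named after their values were seen. The summed level of the 21 genes measured was 283.6 CPM in 11KS28 and 485.4 CPM in 15LS30, inside the 149.2 to 606.5 CPM of the other 15. That sum rested largely on GLS2 (a glutaminase), at 163.4 and 308.2 CPM in these libraries and 319.1 ± 123.2 CPM in High pancreas (SD, n = 8). The bile acid transporter SLC10A1 was at 10.9 and 14.9 CPM, within the range of the others.

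**Figure D3:**
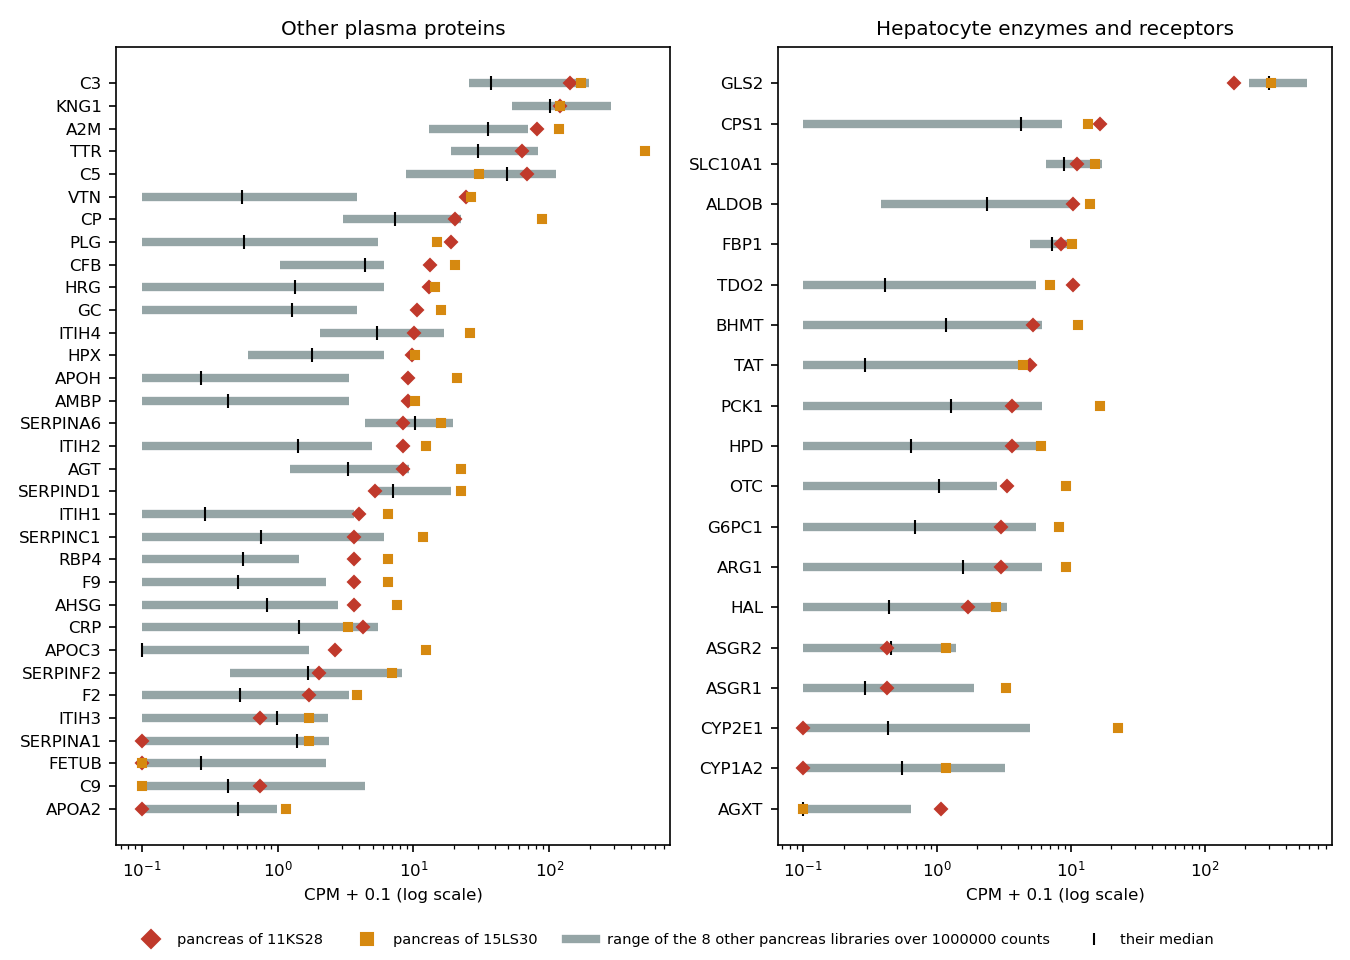
CPM plus 0.1, on a log axis, of 33 other plasma protein genes (left) and 19 of 21 hepatocyte enzymes and receptors (right) in the pancreas of 11KS28 (red diamonds) and 15LS30 (orange squares), over the range (grey bars) and median (black ticks) of the 8 other pancreas libraries with more than 1000000 counts. Both points lie to the right of the bar for 15 of 33 plasma protein genes and for 3 enzymes.

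Of 13 liver transcription factors, 0 were above the 8 deep libraries in both pieces, though PROX1 in 15LS30 lay just above the highest of the 15 others (85.4 CPM). ONECUT1 stood at 74.7 and 70.6 CPM and PROX1 at 58.7 and 87.0 CPM, and each of these is also a factor of pancreatic cells. The enterocyte list, included because APOA1 and APOB are made in the gut, had 0 of 11 genes above the 8 deep libraries. Its summed level was 280.7 CPM in 11KS28 and 168.2 CPM in 15LS30, within the 104.6 to 328.9 CPM of the others, and APOA4 (an apolipoprotein of the gut) had 2 and 2 counts. Summed blood cell markers lay within the range of the other libraries. The erythroid markers, 6 of 9 with a row, were at 2.24 and 11.7 CPM against 1.90 to 74.2 CPM in the others. The platelet markers were at 3.85 and 6.90 CPM against 0.556 to 52.8 CPM, and the lymphocyte markers at 4.81 and 15.4 CPM against 2.50 to 150.7 CPM. In the 8 other deep libraries alone these ranges were 1.90 to 25.9, 0.556 to 11.2 and 2.50 to 25.3 CPM. Macrophage, endothelial, adipocyte, mesothelial, acinar and endocrine markers had 0 genes above the 8 deep libraries in both. Over all genes the share was 1.16%. The lists in this paragraph held 2 (mesothelial) to 13 genes (liver transcription factors), so a count of 0 says little at that share. The endocrine sum of 15LS30 alone was above all others, as given before.

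Seen from the side of all genes, 9780 had 10 counts or more in each of the 2 libraries, and 144 of these were above the 8 other deep libraries in both. They were ordered by the lower of the 2 levels over the highest of the 8. Of the first 20, 5 were members of the set (ALB, FGB, FGG, TF and APOB), 6 were other plasma proteins (VTN, GC, AMBP, APOH, PLG and RBP4), 1 was APOE (an apolipoprotein that macrophages and many other cells also make) and 8 had no symbol. The first 2 in the order, ENSSSCG00000002486 and ENSSSCG00000002487, had no symbol. Their lower level was 22.7 and 13.8 times the highest of the 8, from 14 to 28 counts. It was 6.46 times for VTN, 5.72 times for ALB and 5.39 times for FGB, the next 3. APOE was at 39.1 CPM in 11KS28 and 53.1 CPM in 15LS30 against at most 15.6 CPM in the 8 and 26.4 CPM in the 15. This order was made after the 2 libraries had been picked, and it is a description of them.

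The question of the study was how expression differs between organs of higher and lower islet density. In pancreas, 5 of the 6 genes passed the low-count filter (FGG did not), and edgeR's quasi-likelihood fit called 0 of the 5 at an adjusted p of 0.05 (0 also at an unadjusted p under 0.05, and 3 by DESeq2), where it called 4283 of 10634 genes (40.3%). As a description, the log2 fold change of High over Low pancreas was 0.96 for ALB (SE 0.97), -0.82 for TF (SE 0.65), -0.52 for FGB (SE 0.88), -0.10 for APOA1 (SE 0.36) and -1.38 for APOB (SE 0.81). Their median was -0.52, against 0.07 over all genes tested. For 4 of the 5 genes leaving out 1 library turned the sign. Without 11KS28 the value of ALB was -0.76 (SE 0.78), and without 15LS30 it was 3.19 (SE 0.99), while without both it was 1.55 (SE 0.50). The value of TF was -1.93 without 11KS28 and 0.16 without 15LS30, and that of FGB was -2.40 and 0.81. The value of APOB was -2.97 without 11KS28, -1.15 without 15LS30 and -2.67 without both (SE 0.60), negative each time. That of APOA1 was -0.26 without 11KS28, 0.19 without 15LS30 and 0.06 without both. The calls moved too, for TF, FGB and APOB without 11KS28, for ALB without 15LS30 and for ALB and APOB without both, all of which then passed the threshold. DESeq2 called ALB (1.29), TF (-1.78) and FGB (-2.11) with all libraries in. Without the 7 shallow libraries, which leaves 2 Low libraries, the values were -0.78 for ALB, -1.67 for TF, -1.52 for FGB, -0.28 for APOA1 and -1.49 for APOB, and 0 genes of 13217 were called, with 1222 at an unadjusted p under 0.05.

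**Figure D4:**
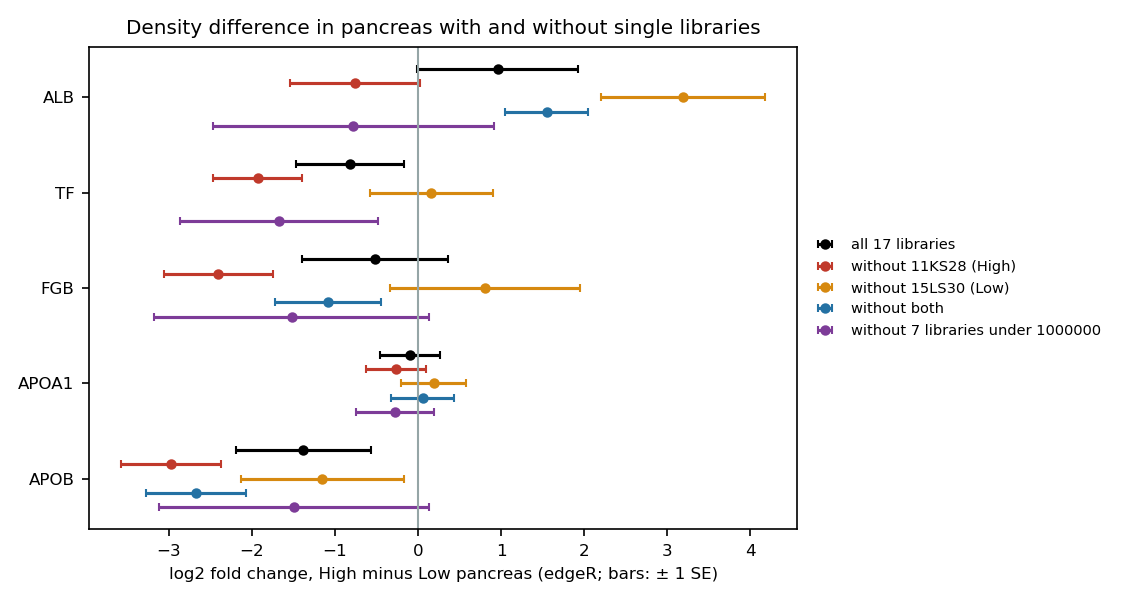
Log2 fold change of High over Low pancreas with its standard error (edgeR) for the 5 plasma protein genes tested, with all 17 libraries and with libraries left out. Points for ALB, TF, FGB and APOA1 change sides of 0 when 11KS28 or 15LS30 is left out, and those for APOB remain below 0. TF did not pass the low-count filter without both libraries.

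Genes that work with these proteins were counted in the same fit, where 40.3% of all genes tested were called in either direction. That share is the scale for the list counts here and in the next paragraph. All of these counts lost every call without the 7 shallow libraries or with log2 depth as a covariate. Of 16 other plasma proteins tested, 1 was higher and 6 were lower in High pancreas, with a median log2 fold change of -1.08, and without 11KS28 and 15LS30 the counts were 2 and 7. KNG1 was the one higher, by 1.67 on the log2 scale (SE 0.42, adjusted p = 0.00365). SERPINF2 (alpha-2-antiplasmin) fell, from 20.8 ± 14.8 CPM in Low (SD, n = 9) to 2.16 ± 2.49 CPM in High (SD, n = 8), and so did AHSG (fetuin A), from 12.2 ± 7.69 to 1.30 ± 1.29 CPM. In 11KS28 and 15LS30 SERPINF2 was at 1.92 and 6.90 CPM. AHSG was at 3.53 and 7.43 CPM there, above the 8 other deep libraries (at most 2.70 CPM) and within the range of all 15 others. Of 8 coagulation and fibrinolysis genes, 1 was higher (PROS1, protein S) and 4 were lower, F11 by -2.90 and F5 by -1.82 on the log2 scale. Of 4 acute phase genes, 0 were higher and 3 were lower, CRP (C-reactive protein) by -3.09 and ITIH4 by -1.58. The lists share genes, so their counts are not independent. CRP and ITIH4 are also among the 6 other plasma proteins that were lower, and SERPINF2 is counted again among the coagulation genes.

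For iron, the cargo of transferrin, 4 of 9 genes tested were higher and 1 was lower. The exporter SLC40A1 was higher by 1.52 (adjusted p = 0.00114) and the importer SLC11A2 by 0.64 (adjusted p = 0.0452), the receptor TFR2 was lower by -2.85 (adjusted p = 0.000285) and the storage chain FTL had a value of 0.41 (adjusted p = 0.268). For lipoproteins, 1 of 7 was higher, LPL (lipoprotein lipase) by 2.22, and 1 was lower, with 0.20 for the cholesterol exporter ABCA1 and 0.41 for LIPC (hepatic lipase), which did not pass. Of 8 liver transcription factors 4 were higher and 1 was lower, CEBPB by 1.58 and FOXA3 by -1.34. Of 6 hepatocyte genes 1 was higher (GLS2, 1.91) and 2 were lower (HPD, a tyrosine breakdown enzyme, by -2.76, and SLC10A1, by -0.84). Of 3 enterocyte genes ANPEP was higher (1.46) and SLC5A1 lower (-1.13). Markers of other cells differed between the same groups: 10 of 10 acinar genes were higher in High pancreas (CPA1 2.72), 3 of 7 endothelial genes were higher, 4 of 9 macrophage and 2 of 2 erythroid genes were lower, SLC4A1 by -4.84 and MARCO by -4.85. Their part in the list counts was not tested.

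In cultured islets, where the density test does not rest on the values that chose the genes, no difference was detected. Only TF and APOA1 passed the low-count filter. TF stood at 15.5 to 62.7 CPM with a median of 26.5 CPM in High islets and at 6.84 to 104.9 CPM with a median of 46.7 CPM in Low islets. The log2 fold change of High over Low was -0.41 (SE 0.51, adjusted p = 0.999, edgeR quasi-likelihood test). The 2 groups overlapped over most of their range. APOA1 stood at 1.69 to 9.58 CPM with a median of 3.90 CPM in High and at 0.978 to 7.54 CPM with a median of 3.75 CPM in Low, with a High over Low value of 0.38 (log2, SE 0.42, adjusted p = 0.999, edgeR). Over all genes edgeR called 0 of 12070 (0%), with 257 at an unadjusted p under 0.05, and DESeq2 also called 0, with 297.

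The other 4 genes were near the floor in islets. ALB was at 2.92 ± 3.52 CPM in High (SD, n = 8) and 1.93 ± 0.948 CPM in Low (SD, n = 9), and its highest islet library was 12FS133 at 10.9 CPM (44 counts). FGB was at 1.39 ± 1.34 and 1.41 ± 1.83 CPM, with 16IS5 highest at 6.03 CPM (21 counts). FGG had 3 counts or fewer in 12 of 18 islet libraries and APOB in 7 of 18. These 4 genes did not pass the low-count filter. With no filter the edgeR log2 fold change of High over Low was 0.71 for ALB (SE 0.55, adjusted p = 0.956), 1.11 for APOB (SE 0.77, adjusted p = 0.95), 0.10 for FGB (SE 0.61, adjusted p = 0.99) and 0.44 for FGG (SE 0.73, adjusted p = 0.99), and none was called. ALB also entered the test when each of 5 High libraries in turn was left out, with values of 0.71 to 0.91, and was not called.

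Between tissues, 5 of the 6 genes were higher in pancreas than in islets and TF was higher in islets. The edgeR fit over 35 libraries tested 5 genes (FGG was filtered) and called 4 of them, all lower in islets, where it called 7726 of 12339 genes (62.6%). Log2 fold changes of islets over pancreas were -6.24 for ALB (SE 0.71), -4.86 for APOB (SE 0.63), -4.40 for FGB (SE 0.59) and -2.33 for APOA1 (SE 0.29), and that of TF was 0.96 (SE 0.45) and not called. Leaving out 11KS28 and 15LS30 moved TF to 2.25, and with the animal as a block it was 1.26, and in both fits it was called. Since pancreas levels chose the genes, these are descriptions.

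Across the 4 labelled groups the mean level of ALB was ordered High pancreas, Low pancreas, High islets, Low islets. ALB averaged 149.8 ± 277.9 CPM in High pancreas (SD, n = 8) and 104.6 ± 269.9 CPM in Low pancreas (SD, n = 9). FGG, APOA1 and APOB had Low pancreas first, High pancreas second, then High and Low islets, at 13.1 ± 18.4 to 0.472 ± 0.436 CPM for FGG, 16.5 ± 13.7 to 4.09 ± 1.95 CPM for APOA1 and 52.0 ± 41.0 to 1.06 ± 0.741 CPM for APOB. FGB had the pancreas groups in that order, at 21.9 ± 41.1 and 14.9 ± 29.6 CPM, and the islet groups reversed. TF had the islets first, at 53.1 ± 35.3 CPM in Low and 35.3 ± 18.7 CPM in High, before 18.9 ± 30.3 CPM in Low and 10.4 ± 15.4 CPM in High pancreas. Neighbours in each order overlapped in range and differed by less than the larger SD, except that APOA1 in High pancreas (15.5 ± 7.21 CPM) exceeded High islets (4.80 ± 3.16 CPM) by more than the SD with overlapping ranges.

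Within the same animal, pancreas exceeded islets in 15 of 16 animals for ALB, 14 for FGB, 14 for APOA1, 13 for APOB, 12 for FGG and 2 for TF. Part of these tallies rests on few counts. Of the 7 shallow pancreas libraries, all from these animals, 5 held 3 counts or fewer for each of ALB, TF and FGB. For FGG it was 4, for APOA1 3 and for APOB 0. In 14BS54, 2 counts of ALB in each tissue gave 7.55 CPM in pancreas and 0.515 CPM in islets. In animal 11KS28 the pancreas held 2589 counts of ALB, 272 of FGB, 151 of FGG and 306 of APOB, and its islets held 2, 0, 0 and 0. Its islets did hold TF (101 counts, 26.8 CPM) and APOA1 (16 counts, 4.25 CPM), at levels inside the range of the other High islets. Islets of 15LS30 were not analysed here. The unlabelled islet library of 12AS51 had 1 count of TF (0.149 CPM), below the 17 other islet libraries (6.84 to 104.9 CPM), with a summed endocrine level of 8125 CPM against 52226 or more in those.

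**Figure D5:**
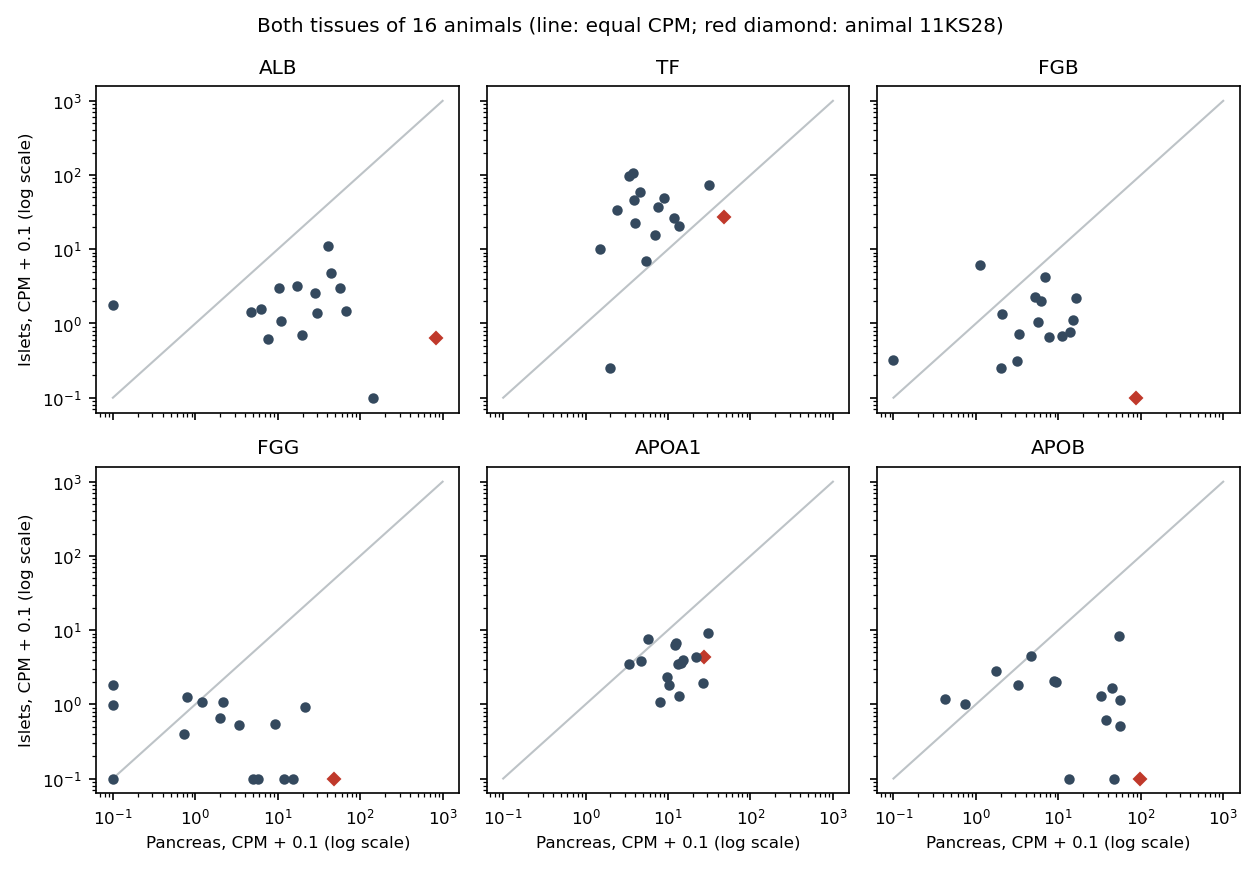
CPM plus 0.1 in pancreas (horizontal) and islets (vertical) of the same 16 animals for each plasma protein gene, on log axes, with a line at equal levels. Points lie below the line in 15 of 16 animals for ALB and above it in 14 of 16 for TF, and the red diamond of 11KS28 lies farthest to the right for ALB, TF, FGB, FGG and APOB. Of the 7 shallow pancreas libraries, 5 held 3 counts or fewer for ALB and 5 for TF.

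In the fit over tissues, the lists around these genes were counted in the same way. Of 15 other plasma proteins tested, 4 were higher and 7 lower in islets, TTR by 4.96 and KNG1 by -5.47 on the log2 scale. Of 7 coagulation genes 0 were higher and 6 lower, and of 7 lipoprotein genes 1 was higher and 5 lower, LIPC by -6.25 and LPL by -7.00. Of 10 iron genes 4 were higher, TFR2 by 2.13, and 4 lower, SLC40A1 by -2.62. Of 7 hepatocyte genes 1 was higher and 4 lower, and of 10 liver transcription factors 3 were higher and 2 lower, ONECUT1 by -5.55. Of 4 acute phase genes 3 were higher, STAT3 by 0.63, and 1 lower, ITIH4 by -3.28. For 62.6% of all genes a call was made in this fit. The lists share genes here too, and ITIH4 is also one of the other plasma proteins that were lower.

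The genes most like the set over the 17 pancreas libraries were sought by Pearson correlation. Log2(CPM + 1) of each gene was correlated with the mean of the 6 standardised genes. The search covered 9293 genes, those outside the set that had a symbol and passed the low-count filter in pancreas. VTN, APOH, GC and HRG did not pass that filter, so they could not be listed. Among the first 10 were PEG10 (r = 0.78), FN1 (0.76), CPLX2 (0.73), TCAF1 (0.73), PAX6 (0.72), PCSK1 (0.72), PABIR2 (0.71), PAPPA2 (0.69) and APOE (0.69). PAX6, PCSK1 and CPLX2 are known from endocrine cells, FN1 is fibronectin, which hepatocytes also secrete into plasma, and PEG10 is an imprinted gene. Without 11KS28 and 15LS30, the 2 libraries farthest from the median, r was 0.68 for PEG10, 0.56 for FN1 and 0.38 for APOE. There it was 0.62 for CPLX2, 0.62 for PAX6, 0.60 for PCSK1 and 0.78 for PABIR2, with 0.46 for TCAF1 and 0.58 for PAPPA2. Over the 10 deep libraries r was 0.83 for PEG10, 0.80 for FN1 and 0.94 for APOE. Of the 10 genes, 2 were also among the 10 most alike over these deep libraries. The points share depth and acinar content, and the correlations are a description over n = 17.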

How the data were processed

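The authors deposited integer read counts for each Ensembl pig gene in 1 pancreas and 1 islet table. FastQC, HISAT2 2.0.2, Subread, edgeR and the build susScr3 are named, with no role or order, per the submitters' processing notes. How reads were assigned to genes (options, strand, annotation) is not given in the sources used here, and reads of overlapping or antisense genes cannot be told apart. The animal code and tissue in a column's name gave its sample (1 column matched no sample and was not used), and groups come from the titles and the density label. Replicates are different animal codes. Symbols came from a table of Ensembl identifiers (14857 of 25880 matched).

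CPM used column totals. The tests used edgeR 4.0.16 under R 4.3.3 (filterByExpr, TMM, robust quasi-likelihood, two-sided, Benjamini-Hochberg over all genes tested, 0.05), and the procedure was tested on simulated data. DESeq2 1.42.0 was an alternative. Libraries of the same animal are paired by their code. Genes named by rule are the members, for each list the 3 with the highest pancreas level and the 2 called with the largest change, and the 10 most alike. Other genes named, among them SERPINA1, APOA2, FETUB, CYP2E1, ASGR1 and APOA4, lie outside this rule and were picked with their values known. The members and lists were chosen with earlier results of these data known, and leaving out 11KS28 and 15LS30 was chosen after seeing the data. The values of 5 single genes of the lists and of the likeness order are not reported here.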

Additional observations from a re-analysis of the deposited data

Results flagged for a closer look

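In 12 of 24 sets of libraries (6 genes in 4 labelled groups) the gap from the highest library to the next was above Dixon's 95% critical value for its share of the range. In High pancreas the library was that of 11KS28 each time: ALB at 829.7 CPM, TF at 47.8 CPM, FGB at 87.2 CPM, FGG at 48.4 CPM and APOB at 98.1 CPM. In Low pancreas it was that of 15LS30 each time: ALB at 823.4 CPM, TF at 96.0 CPM, FGB at 131.04 CPM, FGG at 58.4 CPM and APOB at 151.2 CPM. In neither group was APOA1 set apart. The genes were chosen on these pancreas levels, so the 10 pancreas values are a description, and the rate of about 1 in 20 that chance gives does not apply to them. In the 12 islet sets, ALB at 10.9 CPM in the High library of 12FS133 and FGB at 6.03 CPM in the Low library of 16IS5 were set apart, from 44 and 21 counts. The rate assumes normally distributed values and independent sets. Both genes were near the floor in islets and the sets share libraries, so it is only a rough scale there.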

How the results depend on the processing

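Leaving out each library in turn gave 3305 to 5044 genes called between High and Low pancreas (4283 with all), 0 to 0 in islets and 7487 to 7945 between tissues (7726 with all). Between High and Low pancreas, 0 genes were called with log2 library total as a covariate, 0 without libraries under 1000000 counts and 10836 with no low-count filter, which also gave 15012 between tissues. Upper-quartile scaling moved the median log2 fold change from 0.07 to -0.11 in pancreas (1467 higher and 2772 lower, against 1998 and 2285) and from -0.01 to -0.14 between tissues. When each library was left out in turn, ALB between High and Low pancreas ranged from -0.76 (without 11KS28) to 3.19 (without 15LS30), TF from -1.93 to 0.16, FGB from -2.40 to 0.81 (both by the same libraries) and APOA1 from -0.32 to 0.19. ALB also turned to -0.78 without the shallow libraries and -1.53 with log2 library total, and APOA1 to 0.32 with no filter and 0.06 without 11KS28 and 15LS30. The cause was not tested. With the animal as a replicate block, 6719 genes were called between tissues, TF (1.26, adjusted p = 0.0051, edgeR) among them. ALB, APOA1 and APOB kept their calls there, and FGB did not pass the low-count filter in that fit and so had no call. TF between tissues was also called by DESeq2 (1.08) and with relative log expression scaling (1.01). The number of the 6 genes at the threshold in 11KS28 and 15LS30 was 4 and 4, and it was 4 and 4 with TMM-scaled CPM, 5 and 5 over deep libraries only and 3 and 4 at 10 times the median. Over deep libraries only, 3 libraries had all 6 genes above the median in place of 2. Depth limits the 7 shallow libraries, where members rest on 0 to 19 counts.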
